A study of Mus musculus with 39 samples.

Results

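Genes of glucose production and glucose sensing were followed in the kidney, liver, lung and skin of perforin-deficient mice. The 9 genes were chosen by symbol, as Pcx, Pck1, Fbp1, G6pc, Pklr, Pfkfb3, Slc2a2, Irs2 and Ppargc1a, and were 9 of 24537 genes in the table of kidney, liver and lung and 9 of 52508 in the table of skin. These genes and the pathway lists read beside them were chosen with earlier results of these data known. Their shares of calls are therefore set beside those of all genes as a description only. Between young mice and old vehicle-treated mice, G6pc was higher in the kidney and unresolved in the liver. In the liver, Pfkfb3, Slc2a2 and Fbp1 were lower in old mice and Irs2 was higher. Treatment of old mice with ABT-737, set against vehicle, gave no call among the genes that could be tested in any tissue. Calls were rare over all genes too, with shares of 1.35% (kidney), 3.85% (liver), 0% (lung) and 0% (skin). The lack of calls among so few genes is therefore not read as a lack of effect.

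Gluconeogenesis makes glucose from lactate, amino acids and glycerol, mainly in hepatocytes and in cells of the kidney proximal tubule. Pyruvate carboxylase (Pcx) and phosphoenolpyruvate carboxykinase (Pck1) carry out its first steps, fructose-1,6-bisphosphatase (Fbp1) a later one, and the catalytic subunit of glucose-6-phosphatase (G6pc) releases free glucose. Glucagon, glucocorticoids and fasting raise this pathway, insulin lowers it, and the hepatic clock sets its daily course. Pyruvate kinase of the liver type (Pklr) and the bifunctional enzyme Pfkfb3 act in the glycolytic direction. Slc2a2 encodes GLUT2, the glucose carrier of hepatocytes and of the proximal tubule, Irs2 is an adaptor of the insulin receptor that rises in the fasted liver, and Ppargc1a (PGC-1α) is a coactivator of gluconeogenic and mitochondrial genes.

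All mice carried the Prf1-/- genotype, which removes perforin, the pore-forming protein of cytotoxic lymphocytes, and all groups shared it. Young male mice of 3 months had received no treatment. Old mice of 20 months had been injected intraperitoneally for 2 days a month over 2 months, from 18 months of age, with ABT-737 at 25 mg/kg or with its DMSO-based vehicle. ABT-737 is a small-molecule inhibitor of anti-apoptotic BCL-2 proteins. Kidney, liver and lung had 4 young, 3 vehicle and 3 ABT-737 libraries each, and skin had 3 of each, 39 in all. Age and injection cannot be told apart in the comparison of vehicle with young mice. The genotype limits the groups as a model of aging, since no mouse with perforin was among the libraries. Feeding state and hour of harvest are not given in the sources used here.

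Library totals ran from 1431814 to 3513311 counts in kidney, 223957 to 891116 in liver, 1046508 to 2600092 in lung and 1493411 to 3842808 in skin. Liver was therefore the shallowest tissue, and its vehicle replicate 3, with 223957 counts, the shallowest library. That library also held 8907 CPM of albumin (Alb) against 30297 to 41155 CPM in the other 9 liver libraries. Levels are given as CPM, counts brought to a common library total and scaled between the libraries of 1 tissue. The assay counts tags near the 3′ end of transcripts, so CPM are compared only within a gene. The labelled tissues carried their own markers. Slc34a1, the phosphate carrier of the proximal tubule, was at 4958 to 7407 CPM in kidney and 0 to 1.92 CPM in liver, and the summed level of 10 hepatocyte markers was at least 83744 CPM in every liver library and at most 1293 CPM in every kidney library. Of the 9 genes, all 9 passed the filter on low counts in kidney, while 8 did in liver, 6 in skin and 4 in lung.

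The genes lie on 7 chromosomes of the mm10 build, at the transcripts the files name. The gluconeogenic enzymes are Pcx at chr19:4510472-4621752, Pck1 at chr2:173153073-173159253, G6pc at chr11:101367716-101377903, all on the forward strand, and Fbp1 at chr13:62864753-62888282 on the reverse strand. Of the others, Pklr at chr3:89136623-89146594 and Slc2a2 at chr3:28697903-28728360 lie on the forward strand. Pfkfb3 at chr2:11471431-11502090, Irs2 at chr8:10986964-11008430 and Ppargc1a at chr5:51454249-51553921 lie on the reverse strand. Pcx overlaps Lrfn4, Pklr overlaps Hcn3, Slc2a2 overlaps 1700112D23Rik and Irs2 overlaps 9530052E02Rik, each on the opposite strand, and whether the counting used strand is not given in the sources used here. Ppargc1a overlaps Gm42613 on the opposite strand and Gm42614, Gm42615 and Gm43605 on its own strand. Reads of these pairs are thus not separable with certainty.

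The 250 bases before the start of the 4 genes that differed most with age in kidney or liver are printed 5′ to 3′ from RefSeq (GRCm38.p6), where all 9 genes matched by symbol, because fasting, glucagon and the clock act on promoters of this kind. Capitals mark an E-box (CACGTG) or a cAMP response element core (TGACG, or CGTCA on the other strand). Pfkfb3 is at chr2:11502091-11502340 and Irs2 at chr8:11008930-11009179, both on the reverse strand, and G6pc at chr11:101367466-101367715 and Slc2a2 at chr3:28697653-28697902, both on the forward strand.
Pfkfb3: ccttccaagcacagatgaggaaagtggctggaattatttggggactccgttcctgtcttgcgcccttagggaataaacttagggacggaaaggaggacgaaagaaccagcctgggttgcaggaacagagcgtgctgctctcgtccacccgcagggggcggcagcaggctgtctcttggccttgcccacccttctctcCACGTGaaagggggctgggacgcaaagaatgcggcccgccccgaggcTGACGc
Irs2: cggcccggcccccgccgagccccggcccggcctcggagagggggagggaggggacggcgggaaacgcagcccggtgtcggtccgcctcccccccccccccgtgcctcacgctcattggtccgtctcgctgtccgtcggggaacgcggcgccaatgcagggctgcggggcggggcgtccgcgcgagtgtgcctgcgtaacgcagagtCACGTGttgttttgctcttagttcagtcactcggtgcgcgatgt
G6pc: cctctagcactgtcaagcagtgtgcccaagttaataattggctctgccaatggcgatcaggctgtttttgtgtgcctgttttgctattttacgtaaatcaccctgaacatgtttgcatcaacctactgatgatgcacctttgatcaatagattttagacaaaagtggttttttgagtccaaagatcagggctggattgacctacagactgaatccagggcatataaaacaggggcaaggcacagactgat
Slc2a2: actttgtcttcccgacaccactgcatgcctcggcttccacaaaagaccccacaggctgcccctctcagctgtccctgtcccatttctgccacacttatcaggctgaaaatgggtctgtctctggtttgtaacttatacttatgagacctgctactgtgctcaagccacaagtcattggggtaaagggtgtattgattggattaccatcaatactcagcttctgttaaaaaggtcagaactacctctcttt
In the Pfkfb3 window the E-box began 53 bases and the cAMP response element core 6 bases before the start. The Irs2 E-box began 44 bases before a RefSeq start that differs from the start of the transcript named in the files. The windows of G6pc and Slc2a2 held no match, nor did that of Fbp1, while Pck1 held CGTCA 90 bases and Pcx an E-box 248 bases before its start. On either strand, CACGTG was found in 6.02% and TGACG in 17.8% of the 32851 RefSeq promoter windows of this length. The forkhead motif TGTTTAC, in 3.17% of windows, and the D-box TTATGTAA, in 0.819%, were searched in the same way and found in none of the windows named. The motifs do not overlap each other here, and a match is a description of letters, not a site of binding.

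To ask how age changed these genes in the kidney, old vehicle-treated mice were compared with young mice. G6pc rose and Slc2a2 fell, while the 7 other genes did not pass the test. These were 2 of 9 genes called, against 13.3% of the 11123 genes tested in kidney (7.75% higher and 5.5% lower). The median log2 fold change of the 9 genes was -0.40, against 0.01 over all genes tested. Tests were made with edgeR's quasi-likelihood method, and p-values were adjusted over all genes tested in the tissue with a threshold of 0.05.

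G6pc, the enzyme that releases glucose, stood at 172, 185, 242 and 174 CPM in young kidneys 1 to 4 and at 337, 339 and 416 CPM in vehicle kidneys 3 to 5. The group means were 194 ± 33.0 (SD, n = 4) and 364 ± 44.9 (SD, n = 3). All 3 vehicle libraries lay above all 4 young ones. The rise was 1.88-fold (log2 fold change 0.91 ± 0.17 SE, adjusted p = 0.00209). ABT-737 kidneys were at 339.6, 535 and 419 CPM, also above every young kidney, and differed from young by 2.22-fold (log2 fold change 1.15 ± 0.17, adjusted p = 0.00199). G6pc was the single member called there, and 2.12% of all genes tested were called in that comparison.

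Slc2a2, the GLUT2 carrier on the blood side of the proximal tubule, stood at 56.6, 73.0, 68.5 and 66.9 CPM in young kidneys and at 38.5, 35.6 and 39.0 CPM in vehicle kidneys. The vehicle libraries were all below the young ones and spread little (37.7 ± 1.84, SD, n = 3). The fall was 1.76-fold (log2 fold change -0.81 ± 0.19, adjusted p = 0.00965). Proximal tubule markers moved in the same comparison. Of the 10 markers 3 fell, Slc5a12 by 1.22 on the log2 scale, Lrp2 by 0.84 and Slc27a2 by 0.58, against 5.5% of all genes lower. None was at 0, and the summed level of the list was 12787 to 14163 CPM in young and 10750.4 to 12266 CPM in vehicle kidneys. Leukocyte markers were higher in all 11 that were tested, against 7.75% of all genes. Their sums were 353 to 534 CPM in young and 2086 to 2875 CPM in vehicle kidneys. The part of these shifts in the result was not tested, and in bulk tissue fewer cells of a type and less RNA per cell cannot be told apart.

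The other gluconeogenic enzymes of the kidney did not pass the test. Fbp1 was at 2031, 2119.8, 1981 and 2123 CPM in young and 1808, 1284 and 1596 CPM in vehicle kidneys. The groups did not overlap, but the log2 fold change of -0.40 ± 0.16 had an adjusted p of 0.105. Without vehicle replicate 3 it was -0.53 with an adjusted p of 0.0442. Pck1 ranged from 4327 to 4903 CPM in young and from 4678 to 5248 CPM in vehicle kidneys (log2 fold change 0.07, adjusted p = 0.806). Pcx ranged from 320.0 to 366 CPM and from 259.9 to 482 CPM (0.16, adjusted p = 0.624), so the vehicle range contained the young one.

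Ppargc1a, the coactivator, was at 39.9, 47.4, 44.5 and 47.5 CPM in young and 33.0, 26.0 and 36.2 CPM in vehicle kidneys, with no overlap and a log2 fold change of -0.49 ± 0.19 (adjusted p = 0.105). Without ABT-737 replicate 4, which enters only through the shared estimate of spread, its adjusted p was 0.0414. Irs2 varied within the young group, at 122, 68.9, 29.6 and 36.9 CPM, and vehicle kidneys at 22.4, 44.5 and 45.5 CPM lay inside or just below that range (log2 fold change -0.79 ± 0.41, adjusted p = 0.218). Pfkfb3 (9.23 to 20.2 CPM in young, 11.3 to 13.7 in vehicle) and Pklr (9.07 to 10.7 and 4.32 to 9.58) were low in kidney and did not pass (adjusted p = 0.379 and 0.303).

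**Figure D1:**
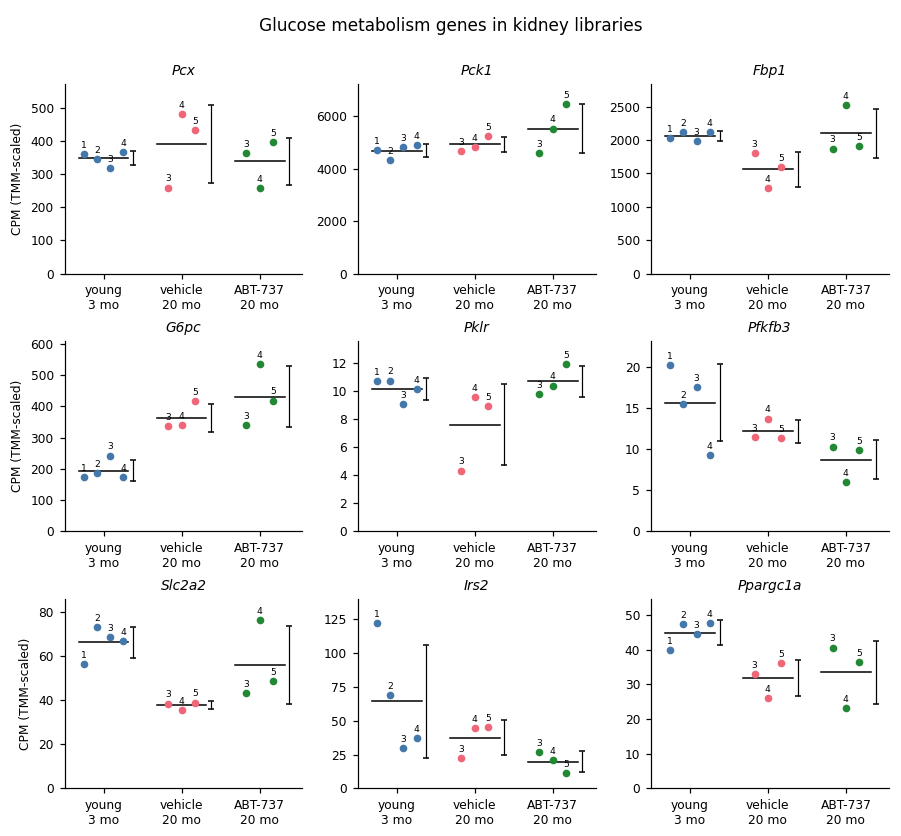
Levels of the 9 genes in kidney, in TMM-scaled CPM on linear axes that start at 0. Points are libraries numbered by replicate, lines are group means and bars are the SD. G6pc is above every young library in all 6 old libraries, and the vehicle libraries of Slc2a2 (35.6 to 39.0 CPM) lie below both other groups.

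The same comparison was made in the liver. Pfkfb3, Slc2a2 and Fbp1 fell and Irs2 rose, 4 of the 8 genes tested against 22.6% of the 5583 genes tested in liver (11.7% higher and 10.8% lower). The median log2 fold change of the 8 genes was -0.65, against 0.02 over all genes tested. Ppargc1a had 0 to 4 counts in every liver library and was not tested.

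Pfkfb3, which makes the allosteric activator of glycolysis fructose 2,6-bisphosphate, was at 34.9, 62.6, 33.8 and 49.9 CPM in young livers. In vehicle livers it was at 0, 8.19 and 1.28 CPM, which were 0, 7 and 1 counts against 18 to 42 counts in the young libraries. Every old liver lay below every young one. The fall was 10.3-fold (log2 fold change -3.36 ± 0.50, adjusted p = 0.000275), and the ratio of summed counts, young over vehicle, was 10.7 with a 95% interval of 5.22 to 25.3 that covers counting error only. Without vehicle replicate 4, the library with 7 counts, the log2 fold change was -5.21. ABT-737 livers were at 3.96, 3.79 and 2.48 CPM, from 1, 2 and 1 counts. They differed from young livers by a log2 fold change of -3.66 ± 0.60 (adjusted p = 0.00225), with a counting ratio of 13.5 (5.14 to 50.6).

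Irs2, which couples the insulin receptor to its downstream kinases, was low in young livers, at 13.6, 8.94, 13.8 and 11.5 CPM. It was at 96.0, 72.6 and 38.5 CPM in vehicle and at 55.5, 74.0 and 24.8 CPM in ABT-737 livers. All 6 old libraries lay above all 4 young ones, and the 2 old groups overlapped. The rise in vehicle livers was 5.34-fold (log2 fold change 2.42 ± 0.40, adjusted p = 0.000603). In ABT-737 livers the log2 fold change from young was 2.11 ± 0.43 (adjusted p = 0.00722), but without ABT-737 replicate 4 it was 1.65 and did not pass (adjusted p = 0.0894).

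Slc2a2, through which hepatocytes exchange glucose with blood, was at 116, 73.0, 111 and 88.2 CPM in young livers and at 4.36, 7.02 and 47.5 CPM in vehicle livers. The vehicle libraries held 1, 6 and 37 counts, so 1 library carried most of the group's reads. The fall was 4.20-fold (log2 fold change -2.07 ± 0.47, adjusted p = 0.00504, counting ratio 4.07 with an interval of 2.94 to 5.76). Without vehicle replicate 5, the library with 37 counts, it was -3.88 with an adjusted p of 2.79e-05. ABT-737 livers were at 31.7, 43.6 and 24.8 CPM, below every young liver, with a log2 fold change from young of -1.50 ± 0.47 that missed the threshold (adjusted p = 0.0585). That value passed when any 1 of the vehicle libraries was left out, the adjusted p then being 0.0156, 0.0229 and 0.00492.

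Fbp1, the bisphosphatase, was at 1686, 1551, 1739 and 1594 CPM in young livers, 1004, 832 and 1013 CPM in vehicle livers and 1427, 1337 and 1344 CPM in ABT-737 livers. The 3 groups did not overlap, with vehicle lowest and ABT-737 between. The fall from young to vehicle was 1.73-fold (log2 fold change -0.79 ± 0.21, adjusted p = 0.0131). The gene was the best covered of the 4 called, and its spread was small in each group, with an SD of 85.3 CPM in young, 102 in vehicle and 49.7 in ABT-737 livers.

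For G6pc, Pck1 and Pklr the liver result turned on single vehicle libraries. G6pc was at 105, 62.6, 135 and 213 CPM in young and at 34.9, 135 and 27.0 CPM in vehicle livers. Pck1, the enzyme that makes phosphoenolpyruvate, was at 7071, 7379.7, 8226 and 5703 CPM in young and at 2553, 7964 and 4367 CPM in vehicle livers. For both genes vehicle replicate 4 lay inside the young range and the other vehicle libraries below it. The log2 fold changes were -0.85 ± 0.46 for G6pc (adjusted p = 0.203) and -0.51 ± 0.34 for Pck1 (adjusted p = 0.305). Without vehicle replicate 4 they were -2.11 (adjusted p = 0.00624) and -1.03 (adjusted p = 0.0333).

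Pklr, which makes pyruvate in the fed liver, had the vehicle libraries in the reverse order of Pck1. It was at 67.8, 56.6, 90.6 and 111 CPM in young and at 153, 11.7 and 59.1 CPM in vehicle livers (log2 fold change -0.42 ± 0.53, adjusted p = 0.622), and vehicle replicate 4 was the lowest library. The estimate was 0.23 without that library and -1.21 without vehicle replicate 3 (adjusted p = 0.0497). Pcx, which feeds pyruvate into oxaloacetate, was at 168, 238, 175 and 223 CPM in young and 415, 220.1 and 268 CPM in vehicle livers (0.55 ± 0.24, adjusted p = 0.109).

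**Figure D2:**
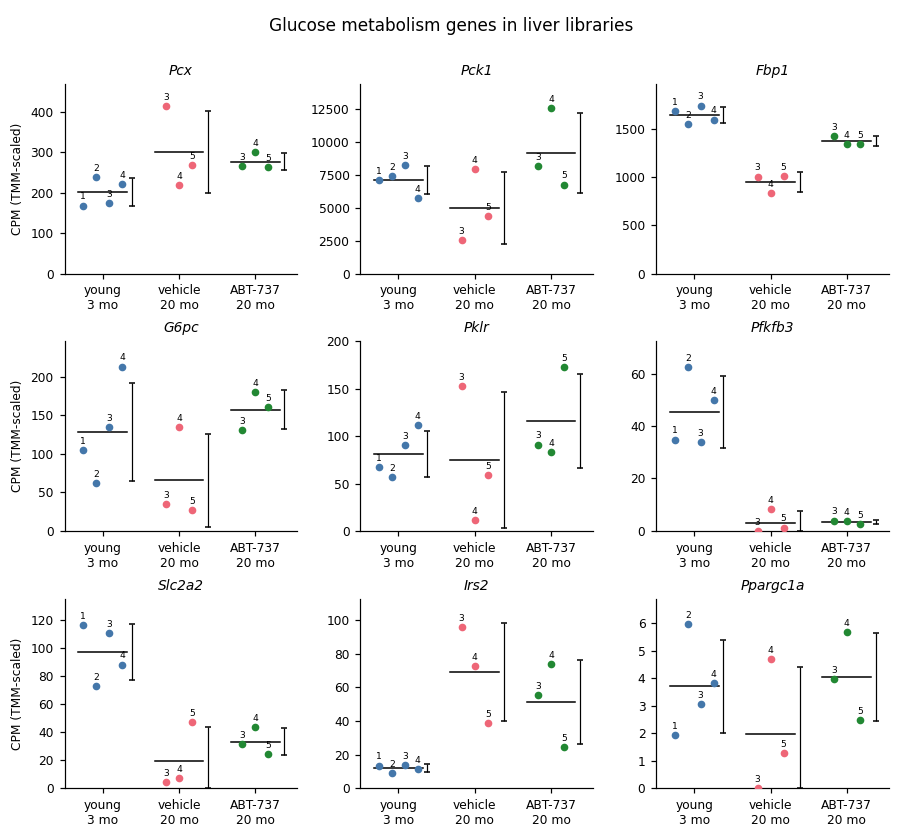
Levels of the 9 genes in liver, in TMM-scaled CPM on linear axes that start at 0. Points are libraries numbered by replicate, lines are group means and bars are the SD, ended at 0. Pfkfb3 is at 33.8 CPM or more in young and 8.19 CPM or less in old livers, and vehicle replicate 4 is the highest vehicle library for G6pc and Pck1 and the lowest for Pklr.

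Cell type markers of the liver were read in the same comparison. Of 10 hepatocyte markers 1 fell (Apob, log2 fold change -2.16), near the 10.8% of all genes lower, and none was at 0. Their summed level was 90449 to 110778 CPM in young and 83744 to 94504 CPM in vehicle livers. Of 6 pericentral hepatocyte markers tested 3 fell, led by Rgn at -2.35, against the same 10.8%. The pericentral sum went from 8467 to 10122 CPM in young to 1508 to 7100.3 CPM in vehicle livers. The periportal hepatocyte sum was also lower without overlap, at 3826 to 4469 CPM in young and 2343.5 to 3686 CPM in vehicle livers. Leukocyte markers rose in all 6 tested, from sums of 147 to 211 CPM to 1188 to 2710.1 CPM, against 11.7% of all genes higher. Their part in the changes of Slc2a2, Fbp1, Irs2 and Pfkfb3 was not tested.

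To ask whether age acted differently on the 2 gluconeogenic organs, the kidney change minus the liver change was tested in 1 model. The model took the libraries as independent, although equal numbers in kidney and liver may stand for the same mouse. Deviations from the group mean correlated between equal numbers at -0.19, 0.05 and -0.03 in vehicle mice. The values were 0.04, 0.07 and 0.15 in ABT-737 mice and 0.07, -0.02, 0.03 and 0.04 in young mice. They do not establish pairing. The difference was called for 3 of the 9 genes, against 2.66% of the 10416 genes tested. The difference was 3.03 ± 0.59 for Pfkfb3 (adjusted p = 0.00334) and -3.20 ± 0.66 for Irs2 (adjusted p = 0.00622), on the log2 scale. Pfkfb3 fell in liver alone among the 2 tissues by the separate tests, and Irs2 rose in liver while its kidney estimate was below 0. For G6pc, higher in old kidneys and not called in liver, the difference was 1.76 ± 0.48 (adjusted p = 0.0445). This last call was lost in 13 of 20 fits that left out 1 library, with values from 1.37 to 3.03. With replicate number within each group as a block, all 3 genes were still called, though that block has no shown basis. For Slc2a2, lower in both tissues, the difference of 1.25 ± 0.48 did not pass (adjusted p = 0.176), and without liver vehicle replicate 5 it was 3.17 (adjusted p = 0.000406). Without liver vehicle replicate 4 the differences were 5.04 for Pfkfb3 and 3.03 for G6pc.

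**Figure D3:**
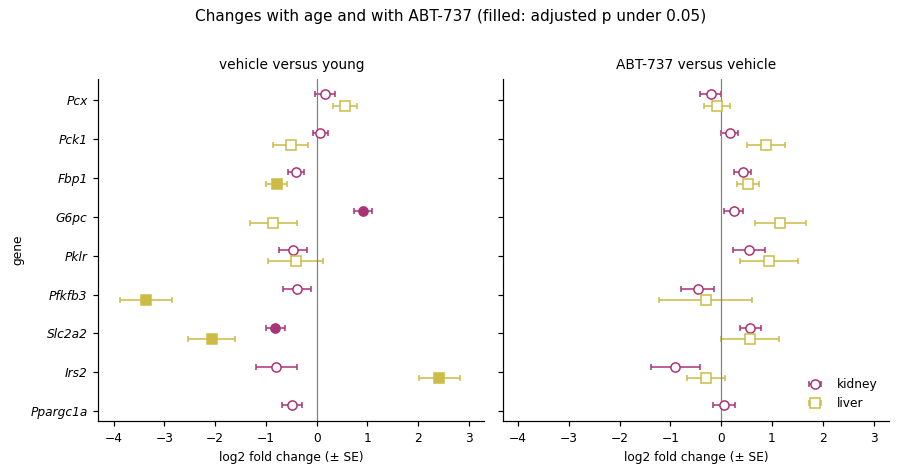
Log2 fold changes of the 9 genes for vehicle against young and ABT-737 against vehicle (Ppargc1a was not tested in liver), with circles for kidney, squares for liver, bars for the SE and filled symbols for an adjusted p under 0.05. The kidney and liver symbols lie farthest apart for Pfkfb3 and Irs2 in the comparison of vehicle with young mice, and no symbol is filled for ABT-737 against vehicle.

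The effect of ABT-737 was asked by comparing it with vehicle in old mice. By edgeR none of the 9 genes passed in kidney, where 2 had an unadjusted p under 0.05 and DESeq2 called 0, against 1.35% of all genes tested. None of the 8 passed in liver, where 3 had an unadjusted p under 0.05 and DESeq2 also called 0, against 3.85% of all genes. The medians of the log2 fold changes were 0.17 in kidney and 0.55 in liver, against 0.01 and -0.03 over all genes tested. The difference between kidney and liver in the drug effect was called for none of the 9 genes (0 with an unadjusted p under 0.05, and 0 by DESeq2), against 0.24% of all genes.

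Fbp1 and Slc2a2 had the smallest p-values in kidney. Fbp1 was at 1874, 2521 and 1909 CPM in ABT-737 kidneys, all above the vehicle libraries, with a log2 fold change of 0.43 ± 0.17 (adjusted p = 0.237). Slc2a2 was at 43.2, 76.2 and 48.8 CPM, again all above vehicle (0.57 ± 0.21, adjusted p = 0.197). In the same comparison 2 of 10 proximal tubule markers rose, Slc5a12 by 1.09 and Lrp2 by 0.74 on the log2 scale, against 1.35% of all genes called. The summed level of the list was 12545 to 16042 CPM against 10750.4 to 12266 CPM. The part of these tubule markers was not tested. Irs2 was at 26.7, 20.8 and 11.4 CPM and Pck1 at 4586, 5528 and 6462 CPM, both overlapping vehicle (adjusted p = 0.406 and 0.682). Pfkfb3 was at 10.3, 5.94 and 9.86 CPM, all below vehicle, and Pklr at 9.76, 10.4 and 11.9 CPM, all above it. Pcx was at 363, 259 and 396 CPM and Ppargc1a at 40.6, 23.3 and 36.3 CPM, both overlapping vehicle. The 5 others, G6pc among them, had adjusted p-values from 0.441 to 0.931.

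In liver, the 3 genes of glucose production with the smallest p-values were all higher with ABT-737. Fbp1 had a log2 fold change of 0.53 ± 0.22 (adjusted p = 0.236). G6pc was at 131, 180.2 and 161 CPM, overlapping vehicle only through vehicle replicate 4 (1.17 ± 0.49, adjusted p = 0.242). Pck1 was at 8144, 12576 and 6759 CPM and overlapped vehicle through the same library (0.88 ± 0.37, adjusted p = 0.233). Without vehicle replicate 4, G6pc (2.43, adjusted p = 0.0125) and Pck1 (1.41, adjusted p = 0.0335) passed. The summed level of the hepatocyte markers was 98840 to 122523 CPM in ABT-737 and 83744 to 94504 CPM in vehicle livers, without overlap. The periportal (3341 to 4241 against 2343.5 to 3686 CPM) and pericentral sums (6719 to 9429 against 1508 to 7100.3 CPM) overlapped. The part of these markers was not tested.

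Pklr in ABT-737 livers was at 91.1, 83.5 and 173 CPM (0.93 ± 0.57, adjusted p = 0.469) and passed without vehicle replicate 3 (1.75, adjusted p = 0.0218). Slc2a2 (0.57 ± 0.57, adjusted p = 0.700) passed without vehicle replicate 5 (2.39, adjusted p = 0.0158). Pcx at 266, 302 and 265 CPM, Irs2 and Pfkfb3 did not pass (adjusted p = 0.930, 0.774 and 0.931). For Pfkfb3 the SE of 0.92 around a log2 fold change of -0.30 shows how little 4 counts in ABT-737 livers and 8 in vehicle livers can resolve.

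Compared with young mice, ABT-737-treated livers had 2 of 8 genes called, Pfkfb3 and Irs2, against 8.4% of all genes. Fbp1 (-0.26, adjusted p = 0.471) and Pcx (0.47, adjusted p = 0.248) were not. In kidney, Irs2 missed the threshold (log2 fold change -1.70 ± 0.44, adjusted p = 0.0548), with all 3 ABT-737 libraries below all young ones. It passed without young replicate 3 (-1.96, adjusted p = 0.0333) and without vehicle replicate 3 (-1.70, adjusted p = 0.0434). Comparisons with young and with vehicle mice share libraries and are not independent.

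Since feeding state and hour of harvest are not given in the sources used here, genes that follow the clock or the last meal were read beside the 9 genes. Dbp, a clock output gene with a large daily cycle, was at 341, 363, 371 and 419 CPM in young kidneys and at 18.5 to 30.2 CPM in all 6 old kidneys. In liver it was at 213, 303, 292 and 326 CPM in young and at 3.96 to 11.6 CPM in old mice. Old and young were far apart in both tissues (log2 fold change of vehicle from young -3.93 ± 0.18 in kidney, adjusted p = 2.17e-09, and -5.00 ± 0.32 in liver, adjusted p = 2.53e-07). Nr1d1 (REV-ERBα), a repressor of the clock, fell by 3.20 in kidney and 4.53 in liver, and Arntl (BMAL1), which it represses, rose by 2.86 in kidney. In lung, vehicle was below young for Dbp (-5.01, adjusted p = 2.79e-06) and Nr1d1 (-5.86, adjusted p = 0.00259). The same held in skin for Dbp (-4.42, adjusted p = 0.0018) and Nr1d1 (-3.24, adjusted p = 0.00874).

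Of the clock list 12 of 19 genes tested in kidney were called between vehicle and young (5 higher, 7 lower), and 7 of 12 in liver (4 higher, 3 lower), against 13.3% and 22.6% of all genes tested. Between ABT-737 and vehicle, by edgeR 0 clock genes were called in kidney and 0 in liver, with 1 at an unadjusted p under 0.05 in each and 0 by DESeq2, and Dbp had log2 fold changes of -0.03 (adjusted p = 0.967) and -0.04 (adjusted p = 0.993). Every age comparison given here, in kidney, liver, lung and skin, therefore runs between groups whose clock genes stand apart. The part of harvest hour in these comparisons was not tested.

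**Figure D4:**
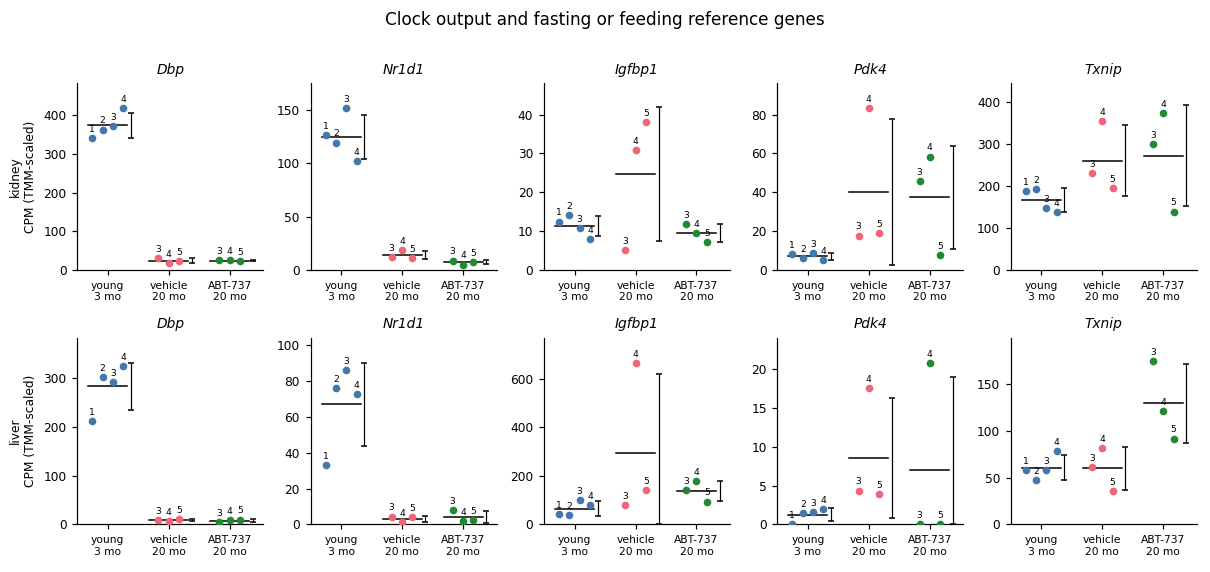
Levels of Dbp and Nr1d1 (clock), Igfbp1 and Pdk4 (fasting) and Txnip (glucose) in kidney, top, and liver, bottom, in TMM-scaled CPM on linear axes that start at 0. Points are libraries numbered by replicate, lines are group means and bars are the SD. Dbp separates all young from all old libraries in both tissues, and Igfbp1 is highest in liver vehicle replicate 4 (667 CPM).

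The fasting list gave mixed directions. In kidney 6 of 19 genes were called with age, 5 higher and 1 lower, against 13.3% of all genes tested. They included, by log2 fold change, Cyp4a14 (2.54), Angptl4 (1.69) and Acot1 (1.05). Pdk4, which blocks pyruvate oxidation in fasting, was at 5.08 to 8.49 CPM in young and 17.7, 83.5 and 18.8 CPM in vehicle kidneys (2.42, adjusted p = 0.0134). In liver 6 of 18 were called, 3 in each direction, against 22.6% of all genes tested (11.7% higher and 10.8% lower), and Cyp4a10 (-2.97) and Lpin1 (-2.21) fell while Ddit4 (3.03) and Ucp2 (1.51) rose.

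Igfbp1, a hepatic gene that insulin represses, was at 42.6, 37.3, 99.8 and 78.7 CPM in young livers and at 78.6, 667 and 141 CPM in vehicle livers (2.25, adjusted p = 0.00706). Vehicle replicate 4, with the highest Igfbp1, was also the vehicle liver with the highest Pck1 and G6pc and the lowest Pklr. Its Srebf1, an insulin-driven activator of lipid synthesis, was at 157 CPM, the lowest of the vehicle livers, which otherwise held 288 and 509.9 CPM. The same library also had the lowest sum of pericentral hepatocyte markers, at 1508 CPM against 7100.3 and 5482 CPM in vehicle replicates 3 and 5. Whether the mice differed in their last meal or in these cells was not tested. With ABT-737 against vehicle, 3 of the 18 fasting genes rose in liver, Cyp4a10 (3.83), Acot1 (2.72) and Lpin1 (1.43), against 3.85% of all genes called. In kidney 1 of 19 fell, Ucp2 (-0.91), against 1.35% of all genes called.

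Of 15 genes of the fed response tested in liver 4 were called with age, again near the 22.6% of all genes, Acacb (1.24) higher and Me1 (-2.66), Elovl6 (-1.33) and Mlxipl (-0.78) lower. Mlxipl encodes ChREBP, the glucose-sensing activator of Pklr. In ABT-737 livers Acacb (1.79) and Txnip (1.07, adjusted p = 0.0369) were above young. Txnip, a gene raised by glucose, was at 174, 121 and 91.6 CPM there against 47.7 to 78.7 CPM in young livers. In kidney Thrsp (0.96) rose with age and Me1 (0.87) rose with ABT-737, each 1 of 15. Of all genes 13.3% and 1.35% were called in these comparisons. Of the glucocorticoid list 5 of 9 genes rose with age in liver, against 11.7% of all genes tested. They were led by Mt2 (7.84), Cdkn1a (5.86), Lcn2 (7.49) and Mt1 (5.65). Tsc22d3 (0.02, adjusted p = 0.966) and Per1 (0.01, adjusted p = 0.994), on the same list, did not pass. With ABT-737 3 of the list fell in liver (Lcn2 -5.19, Mt2 -3.22 and Mt1 -3.22), against 3.85% of all genes called. In kidney Cdkn1a (2.04), Lcn2 (2.67) and Sgk1 (1.08) rose, 3 of 10, against 7.75% of all genes higher with age. Tsc22d3 (0.38, adjusted p = 0.286) and Per1 (-0.20, adjusted p = 0.761) did not pass in kidney. The genes that rose also respond to inflammation and p53, so the list does not stand for glucocorticoids alone.

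Other genes of glucose handling were read from lists by role. In liver 4 of 20 further genes of gluconeogenesis were called with age, a share near the 22.6% of all genes called there, and all 4 were lower. They were Aqp9, the glycerol channel (-0.95), Mpc2 of the mitochondrial pyruvate carrier (from 517 to 255 CPM on average), Slc37a4, which carries glucose 6-phosphate to G6pc (-0.97), and Gk, glycerol kinase (-1.09). Of 10 genes of glycogen metabolism tested in liver 4 fell, against 10.8% of all genes, glycogen synthase Gys2 (-1.42), the branching enzyme Gbe1 (-2.66), the phosphorylase Pygl (-1.27) and Ugp2 (-2.13), and Gbe1 (-3.44) and Ugp2 (-2.44) were also below young in ABT-737 livers. Of 12 glycolytic genes 4 were called, against the same 22.6% of all genes, and Pkm (2.71), Hk3 (3.02) and Pfkl (0.86) rose. Pkm and Hk3, forms more of leukocytes than of hepatocytes, were lower with ABT-737 (-2.24 and -4.51). Of 15 signalling genes Akt1 (0.71) rose and Creb3l3 (-0.86) fell, a share under the 22.6% of all genes called. Of 3 hexose carriers Slc2a1 (1.62) rose, against 11.7% of all genes higher.

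In kidney 7 of 22 further genes of gluconeogenesis were called with age, 3 higher and 4 lower, against 13.3% of all genes tested. The lactate carrier Slc16a1 (1.54 ± 0.19, adjusted p = 6.97e-05) and Fbp2 (0.97) rose, and the channel Aqp3 (-0.95) was among those that fell. Slc16a1 was also above young in ABT-737 kidneys (1.66). Of 21 glycolytic genes Hk3 (3.10), Hk2 (1.76) and Pfkfb4 (1.12), a paralog of Pfkfb3, rose and Pgk1 (-0.67) fell, against the same 13.3%. Of 12 hexose carriers Slc5a8 (-1.33) fell, a lactate carrier of the sodium-glucose family, against 5.5% of all genes lower. By edgeR 0 of 13 glycogen genes (2 with an unadjusted p under 0.05) and 0 of 22 signalling genes (2 with an unadjusted p under 0.05) were called, and DESeq2 called 0 in both lists. The share over all genes was again 13.3%. Between ABT-737 and vehicle, 9 of 11 leukocyte markers fell in kidney, to sums of 519 to 830.2 CPM, and 6 of 6 in liver, to 165 to 332 CPM. Of all genes 1.35% and 3.85% were called in these comparisons.

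Fewer of the genes passed the filter on low counts in lung and skin. In lung 4 were tested and by edgeR 0 were called with age (0 with an unadjusted p under 0.05, 0 by DESeq2), against 12.9% of all genes tested, and 0 with ABT-737 (1 with an unadjusted p under 0.05, 0 by DESeq2), where 0% of the 11949 genes tested passed. At an unadjusted p under 0.05 there were 1919 genes in that comparison, and DESeq2 called 342. With replicate number as a block, 99 genes were called with ABT-737 in lung, none of them a member. Pairing of vehicle and ABT-737 lungs by that number was not established.

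Pck1 in lung was at 34.3, 20.9, 20.6 and 30.7 CPM in young, 31.5, 33.0 and 0.374 CPM in vehicle and 36.7, 1799.8 and 8.05 CPM in ABT-737 mice. A single library thus held 1799.8 CPM, and the log2 fold change of 4.85 ± 1.49 (adjusted p = 0.149) was 0.04 without it (adjusted p = 0.987) and 5.44 without ABT-737 replicate 5 (adjusted p = 0.0416). The same library held 450.0 CPM of Adipoq, the hormone of fat cells, against at most 22.1 CPM in the other 9. Its summed level of 9 adipocyte markers was 7323 CPM, against at most 429 CPM elsewhere. Pck1 also serves glycerol synthesis in fat cells, and the part of fat cells in the value was not tested.

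Pfkfb3 in lung was at 101 to 118 CPM in young, 116, 55.3 and 71.1 CPM in vehicle and 42.5, 94.8 and 47.4 CPM in ABT-737 mice, and neither comparison passed (adjusted p = 0.381 with age and 0.581 with ABT-737). Irs2 was at 42.6 to 54.8 CPM in young and 24.1, 61.8 and 21.3 CPM in vehicle lungs (-0.49 ± 0.39, adjusted p = 0.429), and without vehicle replicate 4 its log2 fold change was -1.16 (adjusted p = 0.0419). Of the genes under the filter in lung, Fbp1 had 0 to 15 counts and Ppargc1a 1 to 6, and G6pc, Pklr and Slc2a2 had 0 or 1 count in each library.

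In skin 6 of the genes were tested and 0 called by edgeR with age (0 with an unadjusted p under 0.05, 0 by DESeq2), against 11.2% of all genes, and 0 with ABT-737 (0 with an unadjusted p under 0.05, 0 by DESeq2), against 0% of the 14224 genes tested, of which 1134 had an unadjusted p under 0.05 and DESeq2 called 60. Fbp1 varied most, at 6.51, 0 and 0.910 CPM in young, 68.5, 1.42 and 3.31 CPM in vehicle and 1.30, 112 and 108 CPM in ABT-737 skin. Its level was high in 3 of the 6 old libraries and in no young one, the log2 fold change with age was 3.42 ± 1.95 (adjusted p = 0.255), and without vehicle replicate 3 it was 0.15. Irs2 in skin was at 48.5, 69.6 and 54.6 CPM in young and 37.8, 64.4 and 18.2 CPM in vehicle mice, and Pck1 ranged from 2.76 to 88.0 CPM with no order by group. Pfkfb3 (6.33 to 21.0 CPM), Pcx (21.5 to 48.8 CPM) and Ppargc1a (0.276 to 6.51 CPM) completed the genes tested, and G6pc, Pklr and Slc2a2 had at most 3 counts in any skin library.

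**Figure D5:**
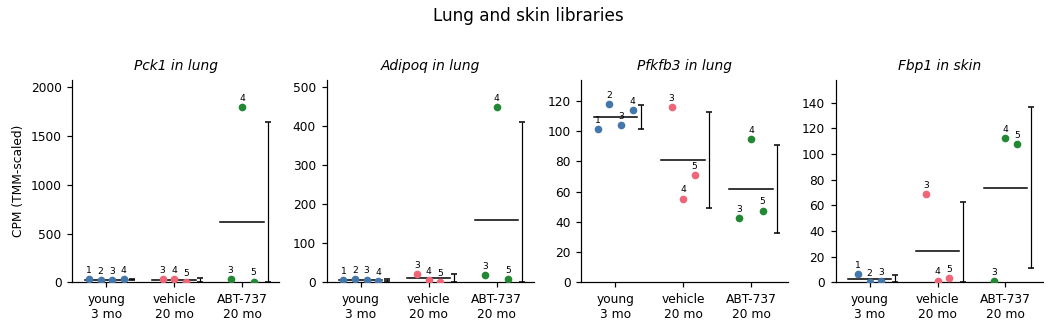
Levels of Pck1, Adipoq and Pfkfb3 in lung and of Fbp1 in skin, in TMM-scaled CPM on linear axes that start at 0. Points are libraries numbered by replicate, lines are group means and bars are the SD, ended at 0. ABT-737 replicate 4 alone carries the high values of Pck1 and Adipoq in lung, and 3 of 6 old skin libraries are above 60 CPM of Fbp1.

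The genes whose log2 levels followed each called gene most closely across the 10 libraries of a tissue are given as a description. In kidney they were Slc11a2, Hyal1 and Egln3 for G6pc (Pearson r of 0.946, 0.943 and 0.940) and Tmem59, Mtx2 and Pex13 for Slc2a2 (0.970, 0.962 and 0.956). In liver they were Slc10a1, Pbld2 and Rgn for Slc2a2 (0.986, 0.978 and 0.976), of which Slc10a1 is the bile acid carrier of hepatocytes and Rgn a marker of pericentral ones. For Fbp1 they were Aox3, Fdx1 and Mcm10 (0.970, 0.969 and 0.963), for Pfkfb3 Atp6ap2, Fam91a1 and Coq10b (0.983, 0.968 and 0.951), and for Irs2 Son, Chd4 and Ctdsp2 (0.960, 0.955 and 0.940). The libraries share their group means and depths in these values.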

How the data were processed

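Bulk RNA from kidney, liver, lung and skin was profiled by MARS-seq, a 3′ tag method, from 50 ng RNA. The authors deposited counts per gene, and the submitters' processing notes name HISAT 0.1.5, HOMER, bcl2fastq and the mm10 build. UMI collapsing is not given in the sources used here. Counts were tested in R 4.3.3 with edgeR 4.0.16 (TMM, filterByExpr, quasi-likelihood fit of the 3 groups of a tissue), and DESeq2 1.42.0 was an alternative. Tests cover the spread between single mice. The steps were tested on simulated data. Levels are TMM-scaled CPM, and log2 CPM for correlation used a prior count of 2. Counting intervals are exact, at 95%, and treat reads as independent. The members and pathway lists were chosen with earlier results of these data known. All 9 members are reported. From each list at most 4 genes that passed, with the smallest adjusted p, are named per comparison, with fixed clock, fasting and feeding genes, and for each called member the 3 most correlated genes. Of the members, all 9 were found by symbol. ABT-737 replicates 4 and 5, whose labels read ABT-738 and ABT-739 in 1 field, were grouped by title. Vehicle and ABT-737 libraries of equal number had deviations with all-positive correlations in lung only, at 0.18, 0.30 and 0.43. Lung pairs of unlike number ran from -0.57 to 0.30, so these values do not establish pairing. A few genes of these lists are not reported here by name. No sample was dropped, and the smallest chi-square per degree of freedom between replicates was 2.40. Alternatives were other scalings, filters, groups in the fit, a replicate block and leaving out each library. Depth limits precision in liver most.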

Additional observations from a re-analysis of the deposited data

Results flagged for a closer look

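In 21 groups of 4 libraries or more of the 9 genes, 1 library stood apart from the rest of its group, where chance marks about 1 in 20. It was young replicate 2 of lung for Pcx, at 25.0 CPM against 32.7 to 34.2 CPM in the other young lungs.

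The change from young to vehicle differed between kidney and liver for 3 genes by the test of the difference itself, in log2 units of kidney minus liver. It was -3.20 for Irs2, 3.03 for Pfkfb3 and 1.76 for G6pc.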

How the results depend on the processing

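Over all alternatives, 946 of the values of single members kept their direction and their side of the threshold, 28 passed newly, 20 no longer passed and 16 changed sign. Liver, with 547867 counts in its median library, limits the low genes Pfkfb3 and Slc2a2 most, and the requirement of 10 counts in every library removed Pfkfb3, Irs2, Slc2a2 and G6pc there by construction. Otherwise the cause of a shift was not tested.

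The counts below are of all genes, with members in brackets. DESeq2 called 229 in kidney and 342 in lung for ABT-737 against vehicle, 60 in skin, 2665 with age in skin, and 451 and 70 for the kidney and liver difference with age and drug. Without the filter the counts were 368 and 452 (2 members) in kidney for ABT-737 against vehicle and young, 1942, 512 (2 members) and 750 in the 3 liver comparisons, 359 (1 member) and 32 for ABT-737 against vehicle in lung and skin, and 487 and 110 for the difference. With 10 counts in every library they were 496 (1 member), 105 and 86 (0 members) in liver, 1004 in lung with age, and 141 (0 members) and 3 for the difference. With only the groups compared they were 69 in kidney, and 98 and 1102 in liver.

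With the replicate block, kidney gave 369 (0 members), 59 and 33 (0 members), liver 291 (2 members), 54 and 39 (1 member), lung 333 and 99, and skin 0 with age. The numbers of young and old mice were not checked for pairing, so the block has no shown basis for the comparisons with young mice. The numbers did not pair kidney (correlations -0.18, -0.21 and 0.02), liver (-0.04, 0.16 and -0.02) or skin (-0.57, -0.58 and 0.28), so calls lost in these fits are not read as weaker effects. Signs changed for Irs2 (0.19) and Pck1 (-0.066) with age in kidney and Pklr (-0.061) for ABT-737 against young in liver, and without the filter for Pcx in liver for ABT-737 against vehicle (0.0026).

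Leaving out 1 library gave 842 to 1885 (2 to 3 members), 57 to 471 and 107 to 308 (1 to 2 members) in kidney, 859 to 1486 (4 to 6 members), 44 to 529 (0 to 2 members) and 197 to 964 (1 to 3 members) in liver, 502 to 2426 (0 to 1 member) and 0 to 676 (0 to 1 member) in lung, 39 to 2459 with age in skin, and 137 to 380 (2 to 3 members) and 3 to 100 for the difference. Estimates that changed sign were, in kidney, Pcx with age (-0.012 to 0.38), Ppargc1a with drug (-0.10 to 0.27), and Pklr (-0.017 to 0.13), Pcx (-0.17 to 0.11) and Fbp1 (-0.13 to 0.10) for ABT-737 against young, and in liver Pklr with age (-1.21 to 0.23) and Irs2 (-0.76 to 0.055), Pfkfb3 (-0.83 to 1.56) and Pcx (-0.26 to 0.20) with drug.

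Some members passed in only part of these fits. Their adjusted p ran, in kidney, from 0.0414 to 0.311 (Ppargc1a with age) and 0.0442 to 0.352 (Fbp1 with age). For Irs2 in kidney, ABT-737 against young, it ran from 0.0333 to 0.130. In liver it ran with age from 0.00624 to 0.522 (G6pc), 0.0333 to 0.641 (Pck1) and 0.0497 to 0.839 (Pklr). With drug it ran from 0.0125 to 0.477 (G6pc), 0.0335 to 0.598 (Pck1), 0.0218 to 0.838 (Pklr) and 0.0158 to 0.9997 (Slc2a2). For ABT-737 against young it ran from 0.00492 to 0.215 (Slc2a2) and 0.00127 to 0.0894 (Irs2). In lung it ran from 0.0419 to 0.832 (Irs2 with age) and 0.0416 to 0.987 (Pck1 with drug). Several of these members also passed with all libraries kept. In liver, Slc2a2 for ABT-737 against young did so by DESeq2 (adjusted p = 0.0307) and with only the groups compared (0.000600). Without the filter, G6pc in liver passed with age (0.0105) and drug (0.00260), and Irs2 in kidney for ABT-737 against young (0.000716).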
